A study of Mus musculus with 30 samples.

Results

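Mfsd2a and 8 genes of caveolae were followed in mouse brain endothelial cells at 5 ages, 9 genes of the 48795 counted in each library. They were chosen by name and function: Mfsd2a as the brake on vesicular transport, the caveolins Cav1 and Cav2, the cavins Cavin1, Cavin2 and Cavin3, the coat-associated genes Ehd2 and Pacsin2, and the diaphragm gene Plvap. The choice was made with earlier results of these data known. All 9 were found in the count tables, and all 9 passed the filter on low counts among the 16844 genes tested. The study's question was how endothelial expression changes with age. The cells were primary brain endothelium of mice labelled WT with no treatment, aged 2, 6, 12, 18 or 24 months. Each age had 6 libraries, 3 male (numbered 1 to 3) and 3 female (numbered 4 to 6), which makes 30. The design text calls the 6 libraries of an age biological replicates, and the sources used here do not give whether mice were pooled.

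Caveolae are flask-shaped pits of the plasma membrane that bud into vesicles and can carry cargo across an endothelial cell. Caveolins and cavins build their coat, EHD2 sits at the neck, PACSIN2 bends the membrane, and PLVAP forms the diaphragm that closes caveolae and fenestrae in leaky vessels. Brain endothelium keeps this route low, and the lipid transporter MFSD2A, which brings lysophosphatidylcholine carrying docosahexaenoic acid into the brain, is known to restrain caveolar vesicle formation there.

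Counts in genes ranged from 24140980 to 50464366 per library. Levels are given as CPM, counts per 1000000 after scaling the libraries, and as RPKM (per kilobase of exon) where different genes are compared. The 12 endothelial identity genes, such as Cldn5 and Slc2a1, summed to between 18206 and 25315 CPM in every library. The 8 neuronal markers summed to no more than 11.4 CPM in any library. Among the 12 marker lists, that of the choroid plexus had the lowest median slope (-1.47). Of its 8 genes 5 fell with age and 0 rose, and its sum ranged from 955.4 to 4426 CPM at 2 months and from 645.0 to 2334 CPM at 24 months. Pericyte markers had 4 of 10 genes up and smooth muscle markers 2 of 8, with none down in either list. Venous markers had 4 of 9 up and 2 down, arterial markers 2 of 12 up and 0 down, and astrocyte markers 0 of 8 up and 2 down. In bulk samples, fewer cells of a type and less RNA per cell cannot be told apart. All adjusted p-values are from edgeR's quasi-likelihood test with Benjamini-Hochberg adjustment over all genes tested, called at 0.05, and an age slope is printed as the log2 change over the 22 months from 2 to 24.

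Mfsd2a fell with age, while none of the 7 coat genes passed the same test. It was the single member called for a slope, against 5.22% of all genes called lower and 5.72% called higher. The gene lies on the minus strand of chromosome 4, at chr4:122946850-122961188 (GRCm38), and shares no exon bases with another annotated gene. Its promoter and those of the neighbours Cav1 and Cav2 on chromosome 6 (chr6:17306335-17341452 and chr6:17281185-17289115, both plus strand) are shown because Mfsd2a passed the slope test and the caveolin pair did not. Each window holds 250 bases before the annotated start and 50 from it, written 5′ to 3′ on the gene's strand from RefSeq (build GRCm38.p6, chr4:122961139-122961438, chr6:17306085-17306384 and chr6:17280935-17281234), and capitals mark motif matches on either strand.
Mfsd2a: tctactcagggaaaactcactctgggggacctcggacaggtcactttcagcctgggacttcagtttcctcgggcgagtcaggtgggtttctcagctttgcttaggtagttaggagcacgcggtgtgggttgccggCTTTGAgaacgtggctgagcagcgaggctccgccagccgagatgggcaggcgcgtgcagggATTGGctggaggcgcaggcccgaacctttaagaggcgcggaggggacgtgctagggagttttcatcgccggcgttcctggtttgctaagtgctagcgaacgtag
Cav1: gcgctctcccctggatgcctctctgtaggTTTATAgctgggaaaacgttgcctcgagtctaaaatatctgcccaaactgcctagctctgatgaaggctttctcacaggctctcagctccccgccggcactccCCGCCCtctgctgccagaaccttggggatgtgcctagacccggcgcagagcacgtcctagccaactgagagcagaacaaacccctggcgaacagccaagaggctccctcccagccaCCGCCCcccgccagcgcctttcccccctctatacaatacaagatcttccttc
Cav2: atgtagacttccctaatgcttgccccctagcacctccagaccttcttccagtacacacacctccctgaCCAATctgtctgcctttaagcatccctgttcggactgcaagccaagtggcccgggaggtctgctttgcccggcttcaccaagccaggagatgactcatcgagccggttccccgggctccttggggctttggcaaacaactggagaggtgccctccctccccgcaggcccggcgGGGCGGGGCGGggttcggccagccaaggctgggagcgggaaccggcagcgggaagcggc

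A set of 6 short motifs was searched on both strands, counting positions from the annotated start: the CCAAT box (CCAAT), the GC box (GGGCGG), the TATA box (TATAAA), the TCF/LEF core (CTTTGA), the palindromic E-box (CACGTG) and a sterol element (TCACNCCAC). The Mfsd2a window held 1 CTTTGA at -115 and 1 CCAAT at -54, the latter read on the opposite strand. Cav1 had opposite-strand GC boxes at -118 and -2 and an opposite-strand TATAAA at -221. Cav2 had a CCAAT at -182 and GC boxes at -9 and -4 that share 1 base. Of all 32817 promoter windows of that length, 37.4% held CCAAT, 35.6% GGGCGG, 13.6% TATAAA and 16.0% CTTTGA. The palindromic E-box was in 7.15% of them and the sterol element in 1.24%, and in 0 of the 7 member windows in the table. Among those 7 members, CCAAT was found in 6, GGGCGG in 5 and CTTTGA in 1.

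In the 6 libraries of 2 months Mfsd2a lay between 809.6 and 1209 CPM, with a median of 1107. The 6-month libraries held 760.2 to 974.9 CPM (median 869.3) and those of 12 months 695.5 to 964.2 CPM (median 848.0). At 18 months the range was 539.9 to 890.2 CPM (median 736.5), and at 24 months 590.5 to 709.9 CPM (median 668.2). The 6 libraries of 24 months were therefore all below every library of 2 and of 6 months, while neighbouring ages overlapped. Mean levels were 1075 ± 138, 863.6 ± 87.2, 829.9 ± 96.3, 738.4 ± 130.2 and 661.9 ± 39.9 CPM in order of age (SD, n = 6 each), so that the 24-month mean changed by -38.4% from that of 2 months. Each library rested on 17470 to 35747 reads of this gene.

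**Figure D1:**
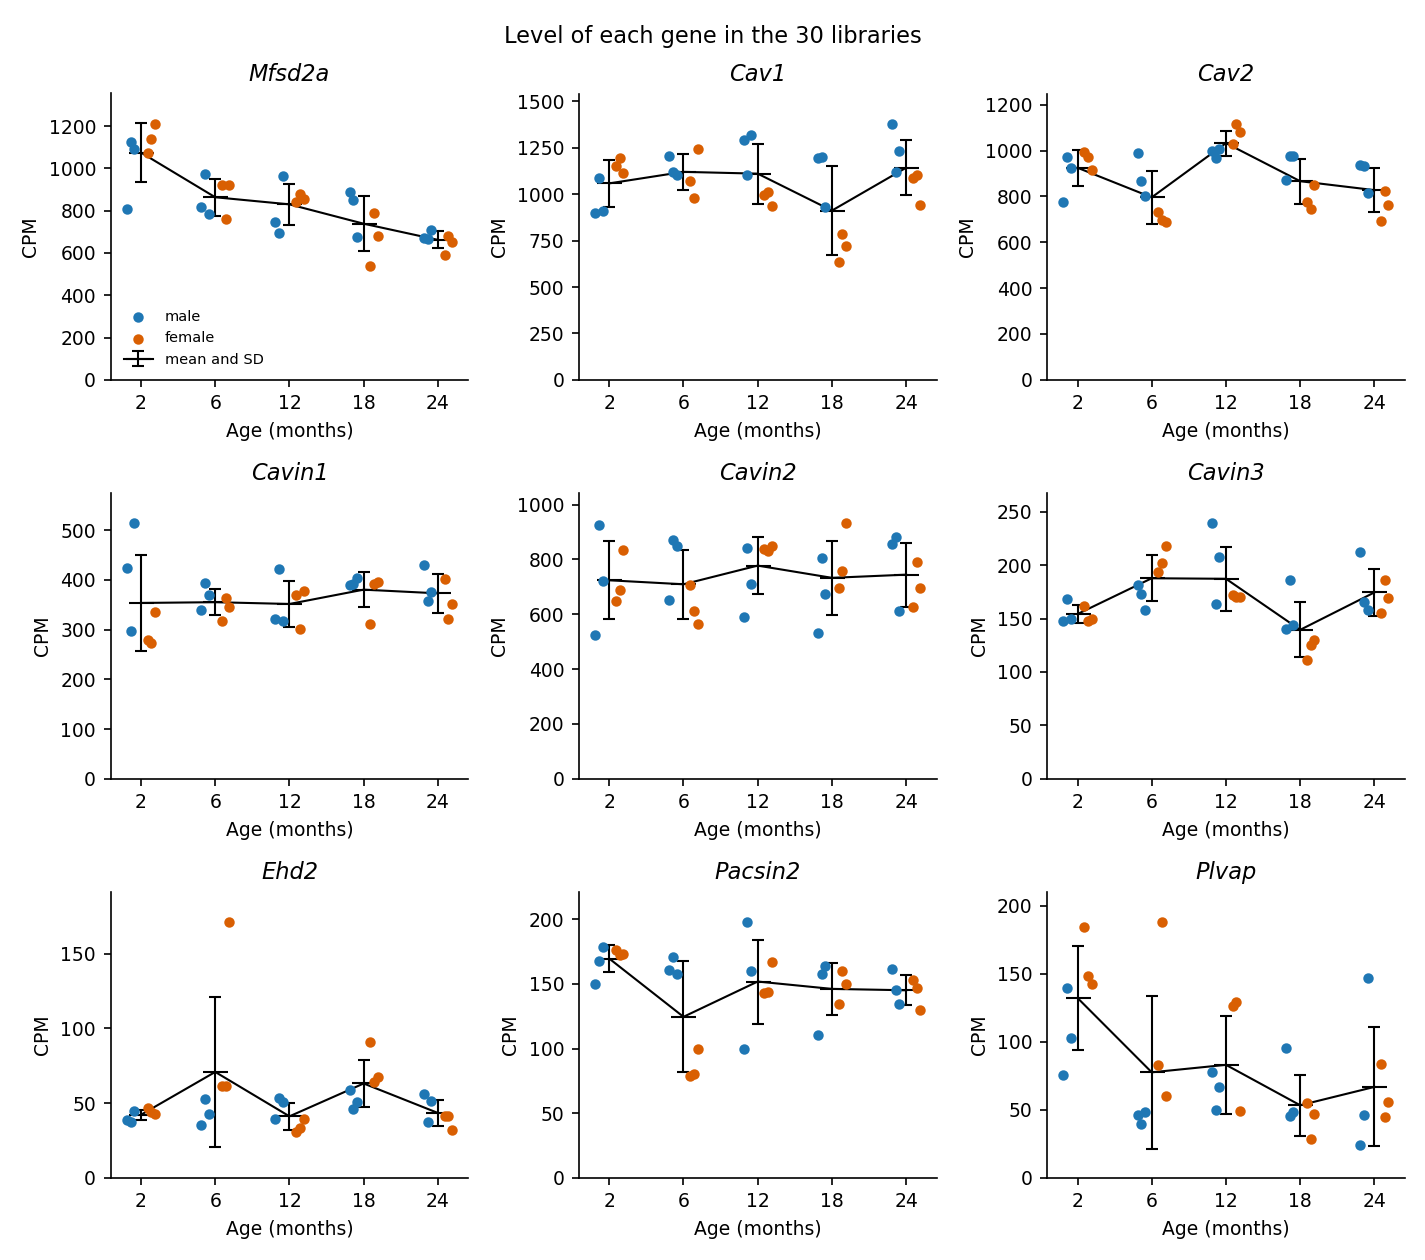
Level of each of the 9 genes (CPM, linear axis from 0) against age in months, with 1 point per library coloured by sex and black bars for the mean and SD of 6 libraries. Mfsd2a steps down from 1075 to 661.9 CPM, while the means of the caveolins and cavins keep no common direction.

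The Mfsd2a slope was -0.63 ± 0.10 log2 (SE, adjusted p = 5.67e-05). Between 2 and 24 months the change was -0.70 ± 0.11 (adjusted p = 5.59e-05), and 1 of 9 members passed this contrast against 8.35% of all genes. By 18 months it was -0.54 ± 0.11 (adjusted p = 7.55e-04), where 18.8% of all genes were called. The earlier steps missed the threshold, with -0.32 ± 0.11 at 6 months (adjusted p = 0.064) and -0.37 ± 0.11 at 12 months (adjusted p = 0.0537) against 2 months. At those ages 0 of 9 members passed in edgeR's test, against 8.76% and 2.94% of all genes. At an unadjusted p under 0.05 stood 6 members and 4183 genes for the first step, and 2 members and 2767 genes for the second. From 6 to 24 months the change was -0.38 ± 0.11 (adjusted p = 0.0483), with 2.91% of all genes called, but this call held in 13 of 30 fits that left out a library and 8 of 14 other alternatives. Between 18 and 24 months no member was called (1.26% of all genes; 3 members and 2481 genes at an unadjusted p under 0.05), and Mfsd2a differed by -0.16 ± 0.11. A test for departure from a straight line was not passed by Mfsd2a (adjusted p = 0.503).

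Several measures of the libraries moved with age beside Mfsd2a, and the slope was refitted with some of them as covariates, in separate fits. Venous, arterial and astrocyte marker levels were not among these covariates. The share of reads outside genes ran from 7.99 to 13.1% at 18 months and reached at most 9.09% at any other age. With that share in the model the slope was -0.55 (adjusted p = 5.73e-03), but the contrast of 18 with 2 months was no longer called (-0.30, adjusted p = 0.558). Capillary markers, of which 2 of 9 fell (Car4 and Meox1) and 0 rose, summed to 12234 to 16031 CPM at 2 months and 10803 to 12317 CPM at 24 months. With their mean level as a covariate, chosen after seeing the data, the Mfsd2a slope was -0.50 (adjusted p = 8.36e-03). With the choroid plexus marker level, also chosen after seeing the data, it was -0.61 (adjusted p = 6.50e-04). With the pericyte and smooth muscle marker level the slope stayed called, but the change from 6 to 24 months did not (-0.19, adjusted p = 0.471). Fitted to the 24 libraries of 6 to 24 months alone, the slope was -0.52 per 22 months (adjusted p = 0.0187).

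The mean log2 CPM of the 7 coat genes stayed between 8.26 and 8.32 at the 5 ages. Against that mean, Mfsd2a stood 1.79 ± 0.14 log2 higher at 2 months (SD, n = 6) and 1.46 ± 0.12 at 6 months. By 12 months the difference was 1.37 ± 0.21, followed by 1.25 ± 0.24 (18 months) and 1.09 ± 0.14 (24 months). The lowest 2-month library (1.54) was above the highest 24-month library (1.24), so these groups did not overlap, and such a difference within a library does not depend on how libraries are scaled. Relative to Cav1 alone, the log2 ratio of the 2 CPM values went from 0.02 ± 0.15 at 2 months to -0.78 ± 0.17 at 24 months. The path was not steady, with -0.38 at 6, -0.42 at 12 and -0.28 at 18 months. Relative to Plvap, which is not among the 7 coat genes, the ratio went from 3.07 ± 0.33 at 2 months to 3.54 ± 0.89 at 24 months. These ratios are given as a description with no test.

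**Figure D2:**
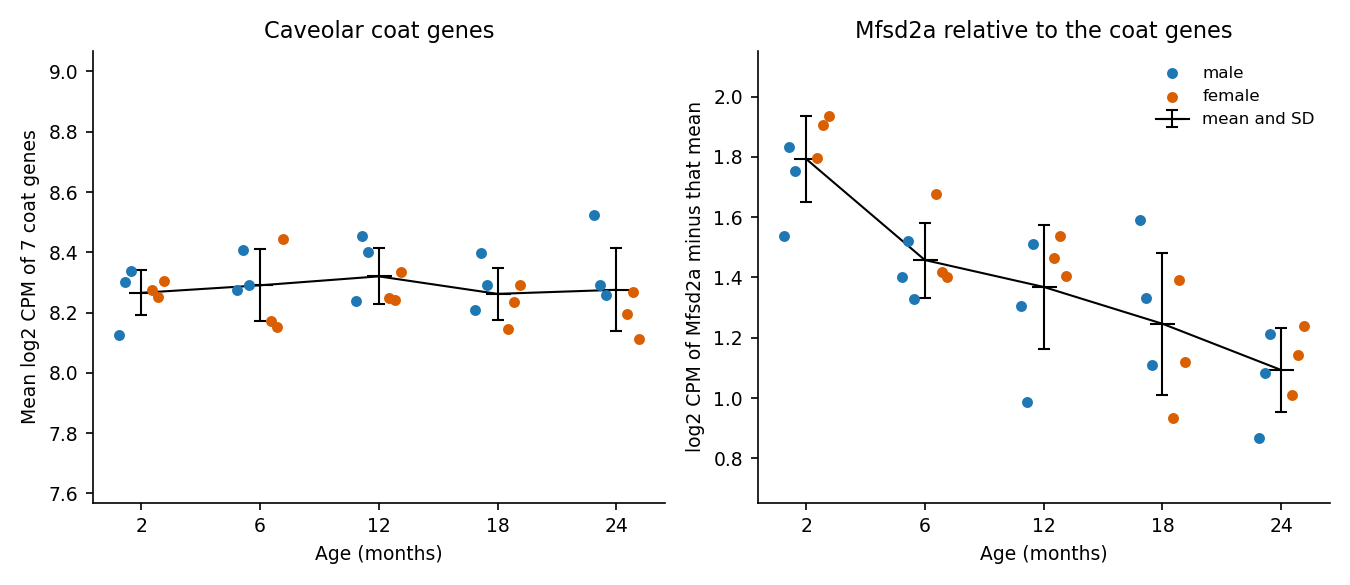
Left, mean log2 CPM of the 7 coat genes in each library against age in months; right, log2 CPM of Mfsd2a minus that mean, with points per library coloured by sex and black bars for mean and SD of 6 libraries. Both axes span the same 1.5 log2 units. The coat mean stays between 8.26 and 8.32 at every age and the difference goes from 1.79 to 1.09.

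Per kilobase of exon and averaged over all ages, Mfsd2a was the most abundant member and Ehd2 the least. At 24 months the order at the top was the reverse, with Cav1 at 331.8 ± 42.8 and Mfsd2a at 294.2 ± 17.7 RPKM (SD, n = 6). Over the 30 libraries Mfsd2a averaged 370.6 ± 76.5 RPKM (SD, n = 30), Cav1 310.3 ± 50.1, Cav2 266.8 ± 36.0 and Cavin2 241.4 ± 38.9. Cavin3 (101.4 ± 17.1) and Cavin1 (101.2 ± 14.4 RPKM) were level with each other within their spread, followed by Plvap (41.5 ± 23.5), Pacsin2 (30.04 ± 5.86) and Ehd2 (10.2 ± 5.04). Cavin3 is undercounted here. Of its 1662 exon bases 374 (22.5%) lie over the opposite-strand transcript Gm45667, and summing the 2 strand columns raised its counts 1.24 to 1.30 times.

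Cav1 encodes caveolin-1, without which endothelial caveolae do not form, and it showed no age slope (-0.04 ± 0.12, adjusted p = 0.854). It ranged from 896.7 to 1194 CPM at 2 months (median 1100) and from 940.2 to 1377 CPM at 24 months (median 1110). At 18 months the libraries spread most, from 633.2 to 1199 CPM (median 860.0). The 3 female libraries of that age held 633.2, 787.0 and 722.9 CPM and the 3 males 1196, 1199 and 933.0 CPM, so the sexes did not overlap. They were also apart at 12 months, with males at 1101 to 1322 CPM above females at 938.4 to 1011. The same held at 24 months, with males at 1118 to 1377 CPM above females at 940.2 to 1102. At 2 months they were apart the other way round, with females at 1113 to 1194 CPM above males at 896.7 to 1088. At 6 months they overlapped. Other members had such gaps between 3 and 3 libraries too. The sexes were apart for Cav2 at 6, 12 and 18 months and for Cavin3 and Ehd2 at 6 and 18 months. They were also apart for Plvap at 2 and 6 months and for Pacsin2 at 6 months. Males were above in some of these groups and females in others. How many of all genes had such gaps was not counted. The female libraries of 18 months had 9.38 to 13.1% of reads outside genes and the males 7.99 to 10.4%. The part of this in the gap between the sexes at that age was not tested. With that share as a covariate over all ages, Cav1 was called neither for sex nor for a difference between slopes, as without it. Over all ages Cav1 was 0.20 ± 0.08 log2 higher in males (unadjusted p = 0.0111, adjusted p = 0.501).

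Cav2, whose protein forms hetero-oligomers with caveolin-1, had a level that went up and down without a slope (-0.08 ± 0.10, adjusted p = 0.647). It ranged from 689.2 to 990.5 CPM at 6 months (median 767.4), from 967.3 to 1115 CPM at 12 months (median 1017) and from 693.3 to 938.0 CPM at 24 months (median 819.4). All 6 libraries of 24 months lay below all 6 of 12 months. Cav2 rose from 6 to 12 months (0.38 ± 0.09, adjusted p = 0.0181; 1 of 9 members and 1.89% of all genes called). It was lower at 18 than at 12 months (-0.26 ± 0.09, adjusted p = 0.0496; 2 of 9 members, 13.2% of all genes) and lower at 24 than at 12 months (-0.33 ± 0.09, adjusted p = 0.0487; 1 of 9 members, 2.04% of all genes). The first call held in 25 of 30 fits that left out a library, the second in 11 and the third in 8. Of 14 other alternatives, 13 kept the first, 5 the second, whose estimate ran from -0.29 to -0.01, and 9 the third. Without the 4 libraries of lowest longer-gene share described with Pacsin2, the first was lost as well (0.28, adjusted p = 0.54).

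Cavin1, needed to assemble the caveolar coat, stayed between 272.9 and 514.1 CPM in all 30 libraries. Its slope was 0.11 ± 0.10 (adjusted p = 0.512), and its highest and lowest age means differed 1.08-fold. Cavin2, which helps to curve the membrane, had a slope of 0.05 ± 0.12 (adjusted p = 0.838) over a range of 524.6 to 932.0 CPM. Neither was called between any pair of ages.

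Cavin3, a cavin that binds to the same coat, was lowest at 18 months. Its 6 libraries ran from 158.1 to 217.6 CPM at 6 months (median 187.6), from 164.0 to 239.2 CPM at 12 months (median 171.3) and from 111.7 to 186.2 CPM at 18 months (median 135.1). Of the 18-month libraries, 5 of 6 lay below every library of 6 months and 5 of 6 below every library of 12 months. The change from 6 to 18 months was -0.44 ± 0.11 (adjusted p = 3.65e-03; 1 of 9 members, 24.6% of all genes) and from 12 to 18 months -0.43 ± 0.11 (adjusted p = 9.17e-03). Both calls held in 30 of 30 fits that left out a library, and both were lost with the share of reads outside genes or of counts in longer genes in the model. The first was also lost without the 4 libraries of lowest longer-gene share, and the second with the choroid plexus marker level as covariate (-0.28, adjusted p = 0.117). Its slope was -0.05 ± 0.12 (adjusted p = 0.84).

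Departure from a straight line over age was called for Cav2 (adjusted p = 0.0122), Cavin3 (9.61e-03) and Ehd2 (0.0362), 3 of 9 members against 17.7% of all genes. With the share of reads outside genes as a covariate, Cav2 alone was called, beside 905 of all 16844 genes. The Ehd2 call held in 19 of 30 fits that left out a library and was also lost with no filter on low counts (adjusted p = 0.076).

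Ehd2 and Pacsin2 stood out through single groups of libraries. Ehd2, an ATPase at the caveolar neck, lay between 30.6 and 91.1 CPM in 29 libraries and at 171.1 CPM in female replicate 6 of 6 months. Its slope was -0.07 ± 0.27 (adjusted p = 0.905). Pacsin2, an F-BAR protein that shapes the pit, held 78.5, 80.2 and 99.7 CPM in the 3 females aged 6 months, against 160.5, 170.8 and 157.6 CPM in the males of that age. Together with male replicate 1 of 12 months (99.6 CPM) these were its 4 lowest libraries of 30, and the other 26 ranged from 110.5 to 197.7 CPM.

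The same 4 libraries had the lowest share of counts in longer genes (exon length above the median of genes with any count), 71.0 to 75.2% against 77.3 to 83.7% in the other 26. Pacsin2 has 4908 exon bases and Cavin3, the shortest member, 1662. Cavin3 held 194.0 to 239.2 CPM in these 4 libraries, against a median of 162.7 CPM in the other 26. Ehd2, the longest member with 5119 exon bases, was not low in the females of 6 months (61.8, 61.4 and 171.1 CPM). It held 39.1 CPM in male replicate 1 of 12 months, and its median in the other 26 was 44.1 CPM. Over all libraries the Pacsin2 slope was -0.07 ± 0.15 (adjusted p = 0.795), and without the 4 libraries, a choice made after seeing the data, it was -0.25 (adjusted p = 0.0422). The part of RNA or library quality in these values was not tested.

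**Figure D3:**
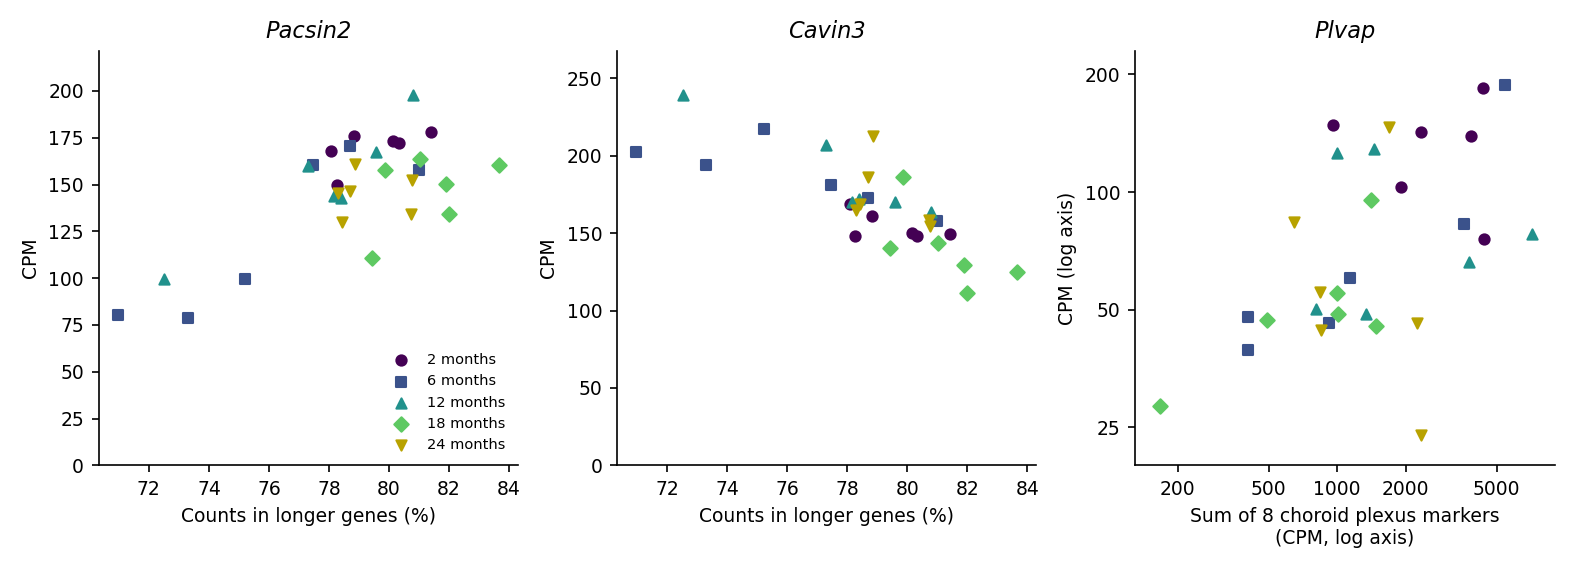
Levels of Pacsin2 and Cavin3 (CPM, linear axes from 0) against the percent of counts in longer genes, and of Plvap against the sum of 8 choroid plexus markers (CPM, both axes logarithmic), with 1 point per library marked by age. The 4 libraries under 76% hold the 4 lowest Pacsin2 values, 78.5 to 99.7 CPM.

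Plvap varied more between libraries than any other member, 7.83-fold from 24.0 to 187.8 CPM. At 2 months it lay between 75.7 and 184.5 CPM (median 140.7), at 18 months between 28.3 and 95.2 CPM (median 47.9) and at 24 months between 24.0 and 146.8 CPM (median 50.9). Of the 24-month libraries 4 of 6 were below every 2-month library, and male replicate 3 at 146.8 CPM lay inside the 2-month range. Plvap was lower at 18 than at 2 months (-1.24 ± 0.38, adjusted p = 0.0201; 2 of 9 members called, Mfsd2a and Plvap, against 18.8% of all genes). That call was lost without female replicate 5 of 18 months (-1.08, adjusted p = 0.0606), with no filter on low counts (-1.25, adjusted p = 0.0593), with the share of reads outside genes as a covariate (adjusted p = 0.473) and with the choroid plexus marker level as one (-0.62, adjusted p = 0.36). The slope missed the threshold (-0.88 ± 0.33, adjusted p = 0.0785), and without male replicate 3 of 24 months it was called (-1.29, adjusted p = 4.78e-03).

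Plvap is a known marker of the fenestrated capillaries of the choroid plexus, and choroid plexus markers moved in the same direction. The 8 markers of its epithelium summed to 2968 ± 1444 CPM at 2 months, 1992 ± 2079 at 6, 2586 ± 2472 at 12, 925.6 ± 512.0 at 18 and 1432 ± 754 at 24 months (SD, n = 6), and none of the 8 was at 0 in any library. The library with most Plvap, female replicate 5 of 6 months at 187.8 CPM, held 5472 CPM of these markers, while the 18-month library with 28.3 CPM held 166.5 CPM. The library with least Plvap, male replicate 1 of 24 months at 24.0 CPM, went the other way, with 2334 CPM of these markers, the highest sum of its age. With the choroid plexus marker level as a covariate the Plvap slope was -0.34 (adjusted p = 0.627). Likewise, male replicate 1 of 12 months had the highest marker sum (7120 CPM) with 77.9 CPM of Plvap. Fibroblast markers summed to 1097 CPM in the library with most Plvap and 222.2 CPM in that with least. In male replicate 1 of 12 months they held 597.8 CPM. Their mean over the libraries of an age was 499.3 CPM at 2 months and 528.7 CPM at 24 months. The part of either cell type in the Plvap levels was not tested, and the share of other vessels in these cells was not measured.

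Sex was tested with age held fixed and as a difference between slopes. No member was called as different between males and females (0 of 9, beside 0.101% of all genes called by edgeR). At an unadjusted p under 0.05 stood 3 members (Cav1, Cav2 and Cavin1, each higher in males) and 1316 genes. No difference between the slopes of the sexes was called (0 of 9 members and 0% of all genes). At an unadjusted p under 0.05 stood 1 member, Cav1 (0.56 ± 0.21), and 916 genes. In the 15 female libraries Mfsd2a had a slope of -0.79 ± 0.13 (adjusted p = 4.48e-03) and Plvap -1.53 ± 0.38 (adjusted p = 0.0374), where 2.12% of all genes were called higher and 1.58% lower. In the 15 male libraries the slopes were -0.47 ± 0.14 (adjusted p = 0.114) and -0.28 ± 0.43 (adjusted p = 0.86), with 0.754% of genes called higher and 0.383% lower. The male minus female difference was 0.32 ± 0.19 for Mfsd2a and 1.25 ± 0.61 for Plvap (both adjusted p = 0.876).

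Changes among related genes are given by list. Of 12 other caveola-linked genes 11 were tested; 3 rose, 0 fell, and the median slope was 0.18, beside 964 genes up, 879 down and a median of 0.03 over all 16844. Flot2, a flotillin of lipid rafts, rose from 24.5 ± 5.24 to 77.1 ± 6.24 CPM between 2 and 24 months (SD, n = 6; slope 1.37 ± 0.16, adjusted p = 8.52e-07). Ehd3, a relative of Ehd2, rose from 42.7 ± 6.19 to 58.5 ± 7.24 CPM (0.39 ± 0.12, adjusted p = 0.0265). The muscle cavin Cavin4 also passed (1.60 ± 0.41, adjusted p = 0.0108) at a mean of 1.38 CPM. Among the most abundant of the list, the dynamin gene Dnm2, whose product cuts vesicles from the membrane, had a slope of -0.24 ± 0.12 (adjusted p = 0.201), the nitric oxide synthase gene Nos3 0.04 ± 0.13 and Ehd4 0.18 ± 0.09.

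Genes that handle lysolipids and fatty acids, the other side of Mfsd2a, moved both ways: 1 of 18 rose and 3 fell, with a median slope of -0.16. The acyl-CoA synthetase gene Acsl6 rose from 34.1 ± 11.7 to 70.6 ± 9.76 CPM (1.05 ± 0.12, adjusted p = 1.42e-06). Its relative Acsl3 fell from 209.7 ± 27.1 to 130.9 ± 8.73 CPM (-0.68 ± 0.14, adjusted p = 2.17e-03). The fatty acid transporter gene Slc27a1 (-0.37 ± 0.12, adjusted p = 0.0337) and the lysophosphatidylcholine acyltransferase gene Lpcat3 (-0.32 ± 0.11, adjusted p = 0.0444) fell too.

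The clathrin route had 1 of 22 genes up, 0 down and a median slope of 0.01. The gene that passed was Hip1, an adaptor between clathrin and actin (0.54 ± 0.15, adjusted p = 0.0207). Of 17 genes of vesicle sorting and fusion 1 rose and 3 fell (median -0.06). The recycling Rab gene Rab4a fell from 93.1 ± 12.1 to 55.4 ± 9.83 CPM (-0.80 ± 0.11, adjusted p = 9.15e-06). The fusion genes Snap23 (-0.37 ± 0.11) and Vamp3 (-0.30 ± 0.09) fell, each with adjusted p = 0.0287, and Vamp2 rose (0.30 ± 0.09, adjusted p = 0.022).

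Of 12 transcytosis receptors 1 rose and 2 fell (median -0.15). The insulin receptor gene Insr rose (0.66 ± 0.17, adjusted p = 0.0124). The neonatal Fc receptor gene Fcgrt fell from 1612 ± 191 to 1278 ± 90.1 CPM (-0.45 ± 0.10, adjusted p = 2.30e-03), and the transcobalamin receptor gene Cd320 fell (-0.53 ± 0.14, adjusted p = 0.011). Of 6 genes of fenestrated endothelium, the closest company of Plvap, none passed edgeR's test in either direction, and the median slope was -0.18. Its most abundant members were the phosphatase genes Plpp1 (-0.19 ± 0.11) and Plpp3 (-0.16 ± 0.17) and the binding protein gene Igfbp3 (-0.41 ± 0.23).

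**Figure D4:**
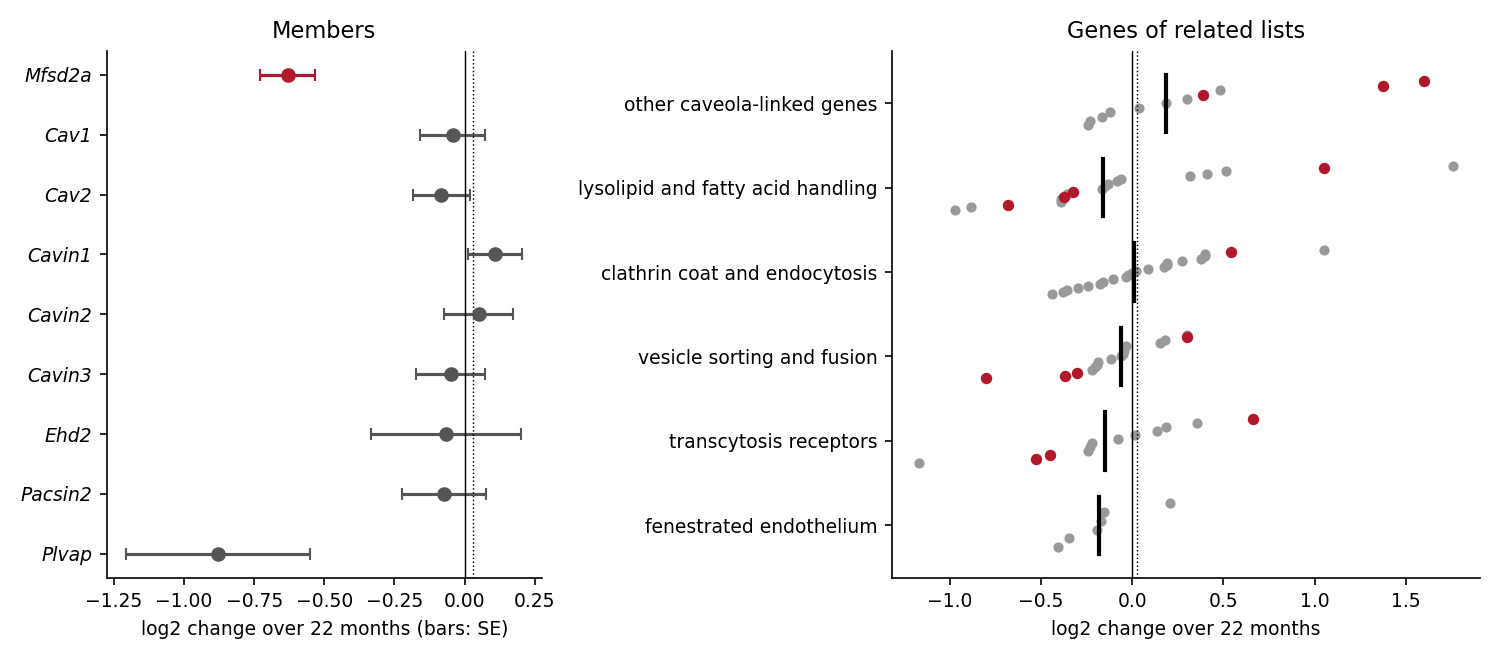
Left, log2 change over 22 months with its SE for the 9 members; right, the same change for genes of 6 related lists, 1 point per gene, with black bars at the list medians. Red points passed the test, the solid line is 0 and the dotted line the median of all genes (0.03). Mfsd2a (-0.63) is the single red member.

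Likeness of pattern was measured as Pearson's r of log2 CPM over the 30 libraries among 9059 genes of at least 10 CPM, as a description with no p, since libraries share depth and composition. The genes most like Mfsd2a were Lims1 and Tspan14 (each 0.83), Tcp1 (0.82), Dok4 and Sparc (each 0.80). All 5 fell with age, which picking them by likeness to a falling gene makes likely. After the mean of each age and sex was subtracted, they were Gars (0.81), Pcbp1 (0.79), Tubb5 and Plod3 (each 0.77) and the endothelial adhesion gene Esam (0.76), none of which was in the first 5. Gars and Tubb5 had a called falling slope, while Pcbp1, Plod3 and Esam did not. The genes most like Cav1 were Slc25a1 (0.87), Vim (0.85), Ppp2r1a (0.84), Foxq1 and Papss1 (each 0.83), and within groups Tspan14 led (0.81). Plvap was most like Igfbp3 (0.80), Slc22a6 (0.78), Pcolce (0.75), Plpp3 (0.73) and Cd300lg (0.72). Within groups it was again most like Igfbp3 (0.82), followed by Moxd1 (0.77), Slc22a6 (0.75), the fibroblast marker Pdgfra (0.73) and Serpinf1 (0.72).

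Among the members themselves, Cav1 and Cavin3 had the highest r over 30 libraries (0.73; 0.61 within age and sex groups). Mfsd2a and Cav1 had r = 0.33 over all libraries and 0.62 within groups, the highest there. The chromosomal neighbours Cav1 and Cav2 had r = 0.26 and 0.16.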

How the data were processed

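RNA was measured in 30 libraries of mouse brain endothelial cells. Per the labels, cDNA came from the SMART-Seq v4 low-input kit and was tagmented with Nextera XT, which keep no strand and add no molecular identifiers, so PCR copies are counted. Reads were paired for 24 libraries and single, from another instrument, for 6; the sources used here do not give which, so instrument entered no model and is part of any group difference it shares. If replicates of an age are not separate animals, p-values measure only the spread between these samples.

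Tools in the submitters' processing notes are STAR 2.5.2b, HTSeq, MultiQC and FastQC 0.11.4, with the builds GRCm38 and mm10, and the annotation release is not given in these sources. The authors deposited 1 table of whole-number, unnormalized counts per gene and library, laid out as by STAR, and the count column that ignores strand was used. Reads outside genes, unmapped, at several places or over several genes stayed out of library sizes: reads outside genes were 3.82 to 13.1% of all reads counted. Identifiers were matched without version to gene names (48349 of 48795), and coordinates and exon lengths came from GENCODE M21 on GRCm38.

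The filterByExpr rule, by age, with counts of at least 10 and a total of at least 15, left 16844 genes. Libraries were scaled by TMM, and CPM uses these scaled sizes. The quasi-likelihood test of edgeR 4.0.16 in R 4.3.3 was run with robust dispersion on the 30 libraries and all genes together, with sex as a covariate, for the slope on age, pairs of ages, departure from a line (3 polynomial terms), sex and the sex by age product. Slopes in each sex were fitted separately. An SE was derived from the F statistic. The scripts were tested on simulated counts. Alternatives used DESeq2 1.42.0, limma 3.58.1, other scalings, filters and covariates, and left out libraries. The 75 pairs of libraries within an age differed by more than sampling noise (chi-square per degree of freedom 15.97 to 198.4), so none was taken for a copy.

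All 9 members were named in full. From each related list, genes that passed the slope test were named, otherwise at most the 3 with the highest mean CPM. The members and lists were chosen with earlier results of these data known. Marker lists covered endothelial, arterial, capillary, venous, pericyte, smooth muscle, fibroblast, astrocyte, oligodendrocyte, neuronal, microglial and choroid plexus cells.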

Additional observations from a re-analysis of the deposited data

Results flagged for a closer look

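A screen of 45 groups, each a member's 6 libraries of an age, looked for a library far from the other 5 by Dixon's ratio of gap to range. It marked 6 groups, where chance marks about 1 in 20. Male replicate 1 of 2 months was low for 3 members: Mfsd2a at 809.6 CPM (others 1075 to 1209), Cav2 at 775.1 CPM (others 915.0 to 992.5) and Pacsin2 at 149.7 CPM (others 167.8 to 178.2). Its 12 endothelial identity genes summed to 19318 CPM, the lowest of that age. Its markers of other cells were the highest of that age: microglia 1514 CPM (others 276.4 to 418.2), oligodendrocytes 935.3 (135.5 to 230.8), smooth muscle 570.6 (147.3 to 256.9) and astrocytes 1213 (441.0 to 643.1). Their part in its levels was not tested, and without it the Mfsd2a slope was -0.67 (adjusted p = 3.24e-05).

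Ehd2 stood at 171.1 CPM in female replicate 6 of 6 months, with the others at 35.4 to 61.8 CPM. Plvap stood at 187.8 CPM in female replicate 5 of 6 months, with the others at 39.4 to 83.1 CPM and a choroid plexus marker sum of 5472 CPM in that library. Cavin1 stood at 310.8 CPM in female replicate 4 of 18 months, below the others at 388.9 to 404.6 CPM.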

How the results depend on the processing

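The Mfsd2a slope was called under all 17 alternatives (-0.68 to -0.50) and in all 30 fits without a library (-0.67 to -0.60), and its change from 2 to 24 months under all 14 (-0.78 to -0.59) and all 30. The count of members with a falling slope was 1, and 2 with limma-voom (Plvap, -1.05, adjusted p = 0.0327), with pericyte and smooth muscle markers as covariate (Plvap, -1.34, adjusted p = 0.0231), with log2 of age (Plvap, -1.004, adjusted p = 0.0335) and without the 4 libraries of lowest longer-gene share (Pacsin2). In either direction these fits called 2077, 1805 and 1842 of 16844 genes and 2328 of 17892 in turn. Across the 17 alternatives the genes called for a slope ran from 402 to 2790. Leaving out each library gave 1 to 2 members for the slope and 1 to 2 for the change from 2 to 24 months. Genes called in those fits ran from 1308 to 2021 for the slope and from 1029 to 1497 for the change, of 17068 to 17184 tested. That change gave 2 falling members with limma-voom (Plvap, -1.18), 2 with capillary markers as covariate (Plvap, -1.91), and with choroid plexus markers as covariate 2 falling (Pacsin2, -0.59, adjusted p = 2.51e-03) and 1 rising (Cavin3, 0.34, adjusted p = 0.0338). Genes called in either direction were 1505, 1188 and 2412 of 16844 in turn, against 1406 in the fit with sex as the only covariate. The count departing from a line went from 3 to 1 with the share of reads outside genes as covariate, while that of all genes went from 2989 to 905 of 16844. With that covariate the Plvap change from 2 to 18 months was not called (adjusted p = 0.473). The causes were not tested. Covariates, the 4 libraries and the strand-column sum beyond those planned were chosen after seeing the data. No signed call that the report makes from all 30 libraries changed sign under the alternatives run for it. With capillary markers as covariate, Pacsin2 (slope 0.40, change 0.23) and Cavin3 (change -0.04) stood on the other side of 0 from the calls listed here, without being called. No scaling moved the median slope of all genes by over 0.1 log2. The labels' numbers pair no samples across ages: No paired analysis was possible because the replicate numbers only name libraries in accession order.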
